A study of Mus musculus with 33 samples.

Results

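A set of 9 genes of the retinoic acid pathway, of 16336 listed in all, was followed by symbol through embryoid body differentiation of mouse embryonic stem cells. They are the receptors Rara, Rarb and Rarg, the retinol uptake receptor Stra6, the enzymes Dhrs3, Aldh1a2 and Cyp26a1, and the binding proteins Crabp1 and Crabp2. All 9 were found in the deposited table. The wild-type line was E14Tg2a, a 129/Ola embryonic stem cell line, and the other lines were its derivatives ΔK9.1 and ΔK9.2. Each derivative is a single clone with a homozygous CRISPR deletion of the region between the Nanog enhancer and promoter that carries H3K9me3, a repressive histone mark, so a difference found in only 1 clone cannot be told apart from clonal variation. Undifferentiated cells (day 0) grew on gelatine in DMEM with 10% FCS and LIF, the cytokine that maintains self-renewal. For embryoid bodies, floating aggregates in which differentiation starts, cells spent 3 days on gelatine with LIF, and the aggregates they formed were then moved to DMEM with 10% FCS without LIF. RNA was taken on day 4 from the aggregates and on days 6 and 8 from the same aggregates after replating. The labels name no added retinoid.

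The 33 poly-A libraries form 12 groups of line and day, with 3 replicates each except day 6, which has replicates 2 and 3. Levels are TPM, values normalised to library size, which are scaled for gene length and so can be set side by side between genes. The values sum to 994284 to 998266 per library over the listed genes, and 12903 to 13905 genes reached 1 TPM. TPM keep no read depth, so no counting interval can be given. The self-renewal gene Nanog stood at 344.0 ± 21.2 TPM (SD, n = 3) in E14Tg2a on day 0, and the summed level of 8 pluripotency markers, 8370 to 9252 TPM in the E14Tg2a libraries of that day, was 390 to 492 TPM on day 8. The libraries thus carry the markers of the labelled cell type. Differences below are on the log2(TPM + 1) scale from limma fitted over all genes. This scale understates the change of genes near or below 1 TPM. A gene was called where its Benjamini-Hochberg adjusted p was under 0.05 and its difference exceeded 1.

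Retinoic acid is made from retinol (vitamin A) in a pair of oxidation steps. Retinol enters cells through the receptor STRA6. Retinol dehydrogenases turn it into retinal, a step that DHRS3 runs in reverse, and ALDH1A2 turns retinal into retinoic acid. In the cell, CRABP2 carries retinoic acid to the nucleus and CRABP1 holds it in the cytoplasm, while the cytochrome CYP26A1 breaks it down. RARA, RARB and RARG are nuclear receptors that bind DNA with an RXR partner, typically at a direct repeat of a short motif, and Rarb, Cyp26a1 and Dhrs3 are classical targets that retinoic acid itself induces. In the embryo this pathway patterns the hindbrain, the trunk and early endoderm.

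A repeat of that kind was found in the promoters of only 2 members. The RefSeq promoters (GRCm38.p6, 250 bases before to 50 after a transcript start) held 17 windows for 8 of the 9 genes. Crabp2 was not matched. Each window was searched on both strands for 2 motifs in the same direction, each being the consensus AGGTCA, the variant AGTTCA, the variant GGGTCA or the variant GGTTCA, with a spacer of 1, 2 or 5 bases (DR1, DR2 and DR5). Rarb and Cyp26a1 each held a DR5, and no member held a DR1 or a DR2. Both stretches below show the 100 bases just before the start, with both motifs of the repeat in capitals, because they are the only members with a match.
Rarb, chr14:16575477-16575576, minus strand: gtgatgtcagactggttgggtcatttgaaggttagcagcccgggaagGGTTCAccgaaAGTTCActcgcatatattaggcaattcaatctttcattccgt
Cyp26a1, chr19:37697708-37697807, plus strand: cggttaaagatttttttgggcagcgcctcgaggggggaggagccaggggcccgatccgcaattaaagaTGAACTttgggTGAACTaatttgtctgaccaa

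In Rarb the repeat spans bases -53 to -37 before the start, in the direction of the gene. In Cyp26a1 it spans bases -32 to -16 and lies on the opposite strand, so its motifs appear above as their complements. A DR5 of these letters was present in 0.0974% of all 32851 RefSeq promoters of this length, a DR1 in 0.222% and a DR2 in 0.268%. Of the 31 genes with a DR5 in a promoter, 7 are listed in the table, and between day 0 and day 8 in E14Tg2a 3 were called higher (Rarb, Cyp26a1 and Hbb-y, an embryonic globin) and 2 lower, beside 26.9% of all genes called in that comparison. A match describes these letters and is not a measured binding site.

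**Figure D1:**
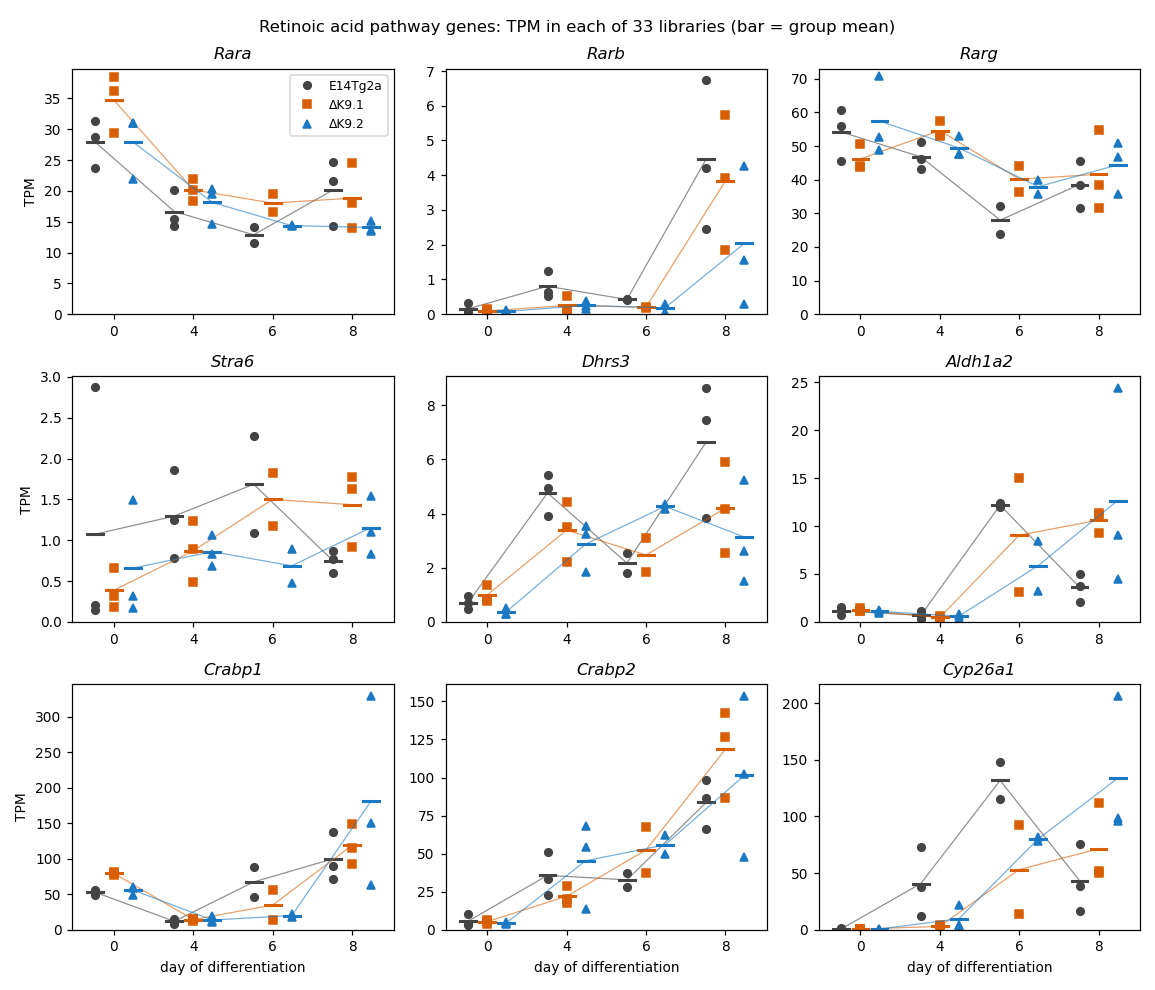
TPM of the 9 genes in each of the 33 libraries by day of differentiation (linear axes from 0, a separate scale per gene). Points are libraries, short bars group means and thin lines join the means of a line. Cyp26a1 reached 116 and 148 TPM in E14Tg2a on day 6 and 95.8 to 206 TPM in ΔK9.2 on day 8.

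In undifferentiated E14Tg2a cells the receptors Rarg (54.2 ± 7.76 TPM, n = 3) and Rara (27.9 ± 3.88 TPM) and the binding protein Crabp1 (53.0 ± 3.46 TPM) were the most abundant members. Crabp2 stood at 5.64 ± 3.80 TPM. Aldh1a2 (1.16 ± 0.45 TPM), Stra6 (1.07 ± 1.56 TPM), Cyp26a1 (0.80 ± 0.94 TPM), Dhrs3 (0.72 ± 0.25 TPM) and Rarb (0.15 ± 0.15 TPM) were near or under 1 TPM. Between the first and the last day the binding protein Crabp2, the receptor Rarb and the enzymes Dhrs3, Aldh1a2 and Cyp26a1 rose in E14Tg2a, and no member was called lower. This makes 5 of 9 members called on day 8 against day 0, beside 26.9% of all genes in that comparison. Rara (-0.48, adjusted p = 0.0365 by limma) and Rarg (-0.49, adjusted p = 0.0193) were lower and passed the adjusted p but not the size limit. On day 4 against day 0 there were 4 called members beside 7.74% of all genes, and on day 6 against day 0 there were 4 beside 17.6%.

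The receptors differed in their levels over time. Rarb, the inducible receptor, was read at 0.04, 0.09 and 0.33 TPM in the E14Tg2a libraries of day 0, at 0.53 to 1.25 TPM on day 4, at 0.43 and 0.42 TPM on day 6, and at 2.46, 6.73 and 4.21 TPM on day 8. Every day 8 library lay above every earlier one. The difference between day 8 and day 0 was 2.18 (SE 0.34, adjusted p = 5.58e-06), and between day 8 and day 6 it was 1.87 (adjusted p = 0.000958). Rara, the broadly expressed receptor, was at 23.7 to 31.4 TPM on day 0, 14.3 to 20.1 TPM on day 4 and 14.2 and 11.6 TPM on day 6. It fell by 1.06 between day 0 and day 6 (adjusted p = 0.000347), a difference that missed the size limit without replicate 2 of day 0 (-0.97) or replicate 3 of day 6 (-0.92). On day 8 Rara ranged from 14.2 to 24.7 TPM, its lowest library barely above the higher one of day 6, with a difference of 0.58 that passed the adjusted p (0.0491) but not the size limit. Rarg, the third receptor, had 45.7 to 60.8 TPM on day 0, 32.0 and 23.9 TPM on day 6 and 31.7 to 45.7 TPM on day 8. Its day 6 libraries lay below all day 0 libraries, with a difference of -0.93 that passed the adjusted p (0.000434) but not the size limit, which it passed without replicate 2 of day 0 (-1.05) or of day 6 (-1.14).

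Among the genes of retinol uptake and conversion, Aldh1a2 and Dhrs3 followed different days. Aldh1a2, the enzyme that makes retinoic acid, was at 0.68 to 1.58 TPM on day 0 and 0.35 to 1.11 TPM on day 4 in E14Tg2a. It then reached 11.9 and 12.4 TPM on day 6 and stood at 3.78, 2.12 and 4.96 TPM on day 8. Day 6 was above every other day without overlap. The rise from day 4 to day 6 was 3.00 (SE 0.47, adjusted p = 6.88e-05), and between day 6 and day 8 it fell by 1.56 (adjusted p = 0.0154). This fall was not called without either day 6 library or without replicate 2 of day 8 (adjusted p 0.0785 to 0.0955). The day 8 level stayed 1.07 above day 0 (adjusted p = 0.0302), a call that was lost in 4 of the 6 fits without 1 library (0.86 to 1.10 in these). Dhrs3, which returns retinal to retinol, had its higher values on days 4 and 8 and lower ones between them. It read 0.47 to 0.96 TPM on day 0, 3.92 to 5.44 TPM on day 4, 1.81 and 2.54 TPM on day 6 and 3.84, 8.65 and 7.46 TPM on day 8. The differences from day 0 were 1.75 on day 4 (SE 0.30, adjusted p = 9.57e-05) and 2.11 on day 8 (adjusted p = 1.20e-06), and the rise from day 6 to day 8 was 1.22 (adjusted p = 0.00843), which was not called without replicate 2 of day 6 (adjusted p = 0.0981) or of day 8 (adjusted p = 0.0512). Day 6 against day 4 had 2 called members beside 9.33% of all genes, and day 8 against day 6 had 3 beside 9.26%. A fit blocked on replicate number called 3 members in the first, with Cyp26a1 in addition (2.36, adjusted p = 0.00529), and 5 in the second, with Crabp2 and Cyp26a1 in addition.

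Stra6, the retinol receptor, was called in no E14Tg2a comparison when all libraries were used. On day 0 it was read at 2.87 TPM in replicate 1 and at 0.14 and 0.21 TPM in replicates 2 and 3. The same E14Tg2a library held the highest Cyp26a1 level of day 0 (1.89 TPM, against 0.25 and 0.26 TPM) and Crabp2 level (10.02 TPM, against 3.52 and 3.37 TPM). Without it Stra6 was called higher on day 6 than on day 0 (1.16, adjusted p = 0.00446), against 0.58 with it. The library also had the largest summed level of 16 extra-embryonic endoderm markers, 365 TPM against 39.1 and 49.8 TPM. In ΔK9.2, replicate 1 of day 0 likewise had the highest Stra6 (1.49 TPM, against 0.18 and 0.32 TPM) and marker sum (183 TPM, against 42.7 and 32.4 TPM). The part of these markers in the Stra6 values was not tested.

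The binding proteins started from different levels and both ended high. Crabp1 read 49.5 to 56.4 TPM on day 0 and 15.0, 12.04 and 8.53 TPM on day 4 in E14Tg2a, with no overlap, and fell by 2.10 (SE 0.42, adjusted p = 0.000654). Day 6 was at 88.9 and 45.8 TPM, 2.37 above day 4 (adjusted p = 0.000853), and day 8 at 71.5 to 138 TPM, where the difference from day 0 was not called. Crabp2 was at 3.37 to 10.02 TPM on day 0, 22.6 to 51.0 TPM on day 4, 37.4 and 28.1 TPM on day 6 and 66.5 to 98.3 TPM on day 8. The libraries of each later day lay above those of day 0, by 2.54 on day 4 (SE 0.45, adjusted p = 0.000186), 2.47 on day 6 (adjusted p = 0.000363) and 3.80 on day 8 (adjusted p = 1.04e-07).

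Cyp26a1, the enzyme that degrades retinoic acid, had the widest range of the members. Its group means ran from 0.56 to 134 TPM, a range of 6.43 on the log2 scale that 99.8% of all genes did not exceed. In E14Tg2a it read 1.89, 0.25 and 0.26 TPM on day 0, 72.9, 11.7 and 37.6 TPM on day 4, 116 and 148 TPM on day 6, and 75.3, 16.2 and 38.7 TPM on day 8. All later libraries were above all day 0 libraries, while days 4 and 8 overlapped. The differences from day 0 were 4.32 on day 4 (SE 0.67, adjusted p = 3.82e-05), 6.31 on day 6 (adjusted p = 4.08e-07) and 4.49 on day 8 (adjusted p = 3.26e-06). The ranges of the other members over the 12 group means exceeded those of 98.5% (Crabp2), 97.1% (Crabp1), 94.6% (Aldh1a2), 89.3% (Dhrs3), 87.8% (Rarb), 64.5% (Rara), 44.4% (Rarg) and 39.9% (Stra6) of all genes.

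The same 5 genes were called higher between the first and last day in both clones. In ΔK9.1 day 8 against day 0 called 5 members beside 20.9% of all genes: Rarb (2.06), Dhrs3 (1.34), Aldh1a2 (2.38), Crabp2 (4.24) and Cyp26a1 (5.43). In ΔK9.2 there were 6 beside 22.2%: Rarb (1.27), Dhrs3 (1.49), Aldh1a2 (2.41), Crabp2 (4.11), Cyp26a1 (6.34) and Crabp1 (1.38). Crabp1 in ΔK9.2 rested on replicate 3 of day 8, which read 330.0 TPM against 63.1 and 151 TPM in the others, and without it the difference was 0.80 (adjusted p = 0.111). Rarb in ΔK9.2 was at 0.28, 1.57 and 4.26 TPM on day 8, and without replicate 3 its difference was 0.76. Rara differed by -0.87 in ΔK9.1 and -0.93 in ΔK9.2, which passed the adjusted p (0.000534 and 0.000265) but not the size limit. In E14Tg2a Rara was likewise lower by the adjusted p alone (-0.48, adjusted p = 0.0365 by limma). Comparing the change from day 0 to day 8 between the clones and E14Tg2a called none of the members beside 3.05% of all genes, with 1 member, Aldh1a2, at an unadjusted p under 0.05 (1.32, adjusted p = 0.118). ΔK9.1 against ΔK9.2 on day 8 called no member and 0.00% of all genes by limma, with 1 member, Rarb, at an unadjusted p under 0.05 (0.82, adjusted p = 0.769).

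The clones were then compared with E14Tg2a on each day. Of the 6 members tested on day 0 none was called, beside 0.462% of all genes, and none was at an adjusted p under 0.05 in either direction. Crabp1 was at an unadjusted p under 0.05 (0.32, adjusted p = 0.0546 by limma). Rarb, Dhrs3 and Cyp26a1 were under the 1 TPM limit of this fit. The looser rule with an absolute difference above 0.3 in each clone, used for undifferentiated cells in the study, called no member and 0.0758% of all genes. Crabp1 passed it in 1 clone: its libraries held 77.6 to 81.2 TPM in ΔK9.1, all above the 49.5 to 56.4 TPM of E14Tg2a (0.58, adjusted p = 0.00645), and 48.4 to 60.8 TPM in ΔK9.2 (0.07, adjusted p = 0.853).

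On day 4 Cyp26a1 was the member that differed. It read 4.55, 3.38 and 1.07 TPM in ΔK9.1 and 22.0, 3.81 and 3.23 TPM in ΔK9.2, against 72.9, 11.7 and 37.6 TPM in E14Tg2a. Of the 6 clone libraries, 5 lay below every E14Tg2a library, the exception being replicate 1 of ΔK9.2, and each lay below the E14Tg2a library of the same number. The difference was -2.63 (SE 0.58, adjusted p = 0.0131), 1 called member of 9 beside 0.796% of all genes. It was not called without replicate 1 (-2.05, adjusted p = 0.0796) or replicate 3 (-2.52, adjusted p = 0.105) of E14Tg2a, or with only the day 4 libraries in the fit (adjusted p = 0.0980). The exact two-sided permutation test over these 9 libraries gave p = 0.0476, where 0.0238 is the smallest it can give and 36 such tests were made (adjusted p = 0.343). It exchanged libraries freely, so its p does not allow for replicate number or for libraries that share a clone. Bulk values cannot tell fewer expressing cells from less RNA per cell.

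The level of Cyp26a1 on day 4 moved with markers of extra-embryonic endoderm, the lineage that forms on the surface of embryoid bodies. The 16 markers summed to 1283, 173 and 637 TPM in E14Tg2a replicates 1, 2 and 3, in the same order as Cyp26a1. They summed to 66.5, 14.4 and 13.6 TPM in ΔK9.1 and to 369, 41.7 and 41.5 TPM in ΔK9.2, where replicate 1 was the high library in both measures. One marker, Sox7, was under 1 TPM in every clone library of day 4. The part of these markers in the Cyp26a1 difference was not tested.

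**Figure D2:**
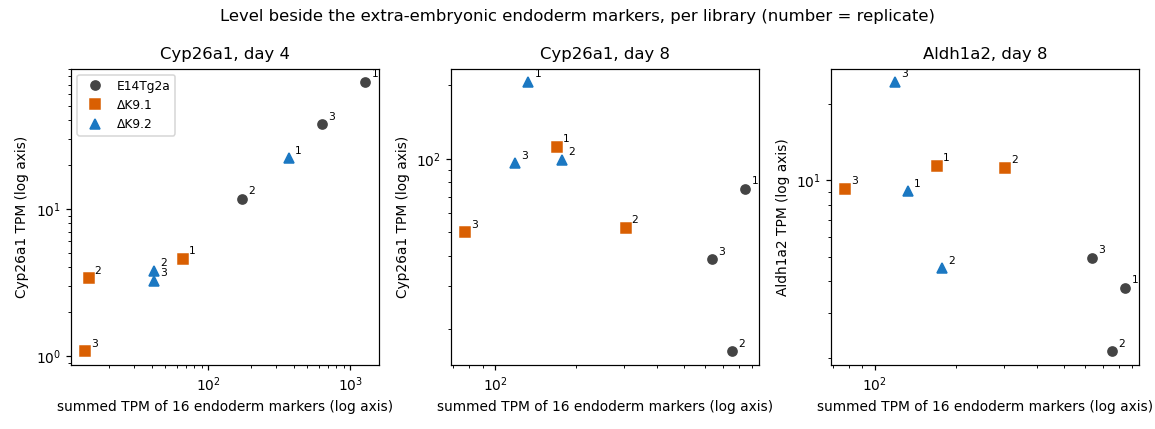
Cyp26a1 on days 4 and 8 and Aldh1a2 on day 8 (TPM, log axis) against the summed TPM of 16 extra-embryonic endoderm markers (log axis) in the 9 libraries of each day, with the replicate number beside each point. On day 4 the 4 libraries with sums of 173 TPM or more were those with Cyp26a1 at 11.7 TPM or more, and on day 8 the 3 E14Tg2a libraries had the largest sums, with Aldh1a2 at 2.12 to 4.96 TPM.

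Other members differed by less on day 4. Rarb stood at 0.11 to 0.51 TPM in the clones, below the 0.53 to 1.25 TPM of E14Tg2a without overlap (-0.52, adjusted p = 0.421 by limma, exact permutation p = 0.0238, 0.343 adjusted over the 36 tests). Dhrs3 read 1.85 to 4.44 TPM in the clones against 3.92 to 5.44 TPM, with 5 of 6 clone libraries below all E14Tg2a libraries (-0.51, adjusted p = 0.350 by limma, exact permutation p = 0.0476, adjusted 0.343). Neither passed the test across all genes, and the share of all genes without overlap on day 4 was not computed. Crabp1 and Crabp2 libraries overlapped on this day. Measured from their own day 0, both clones shared the fall of Crabp1 and the rise of Crabp2 and Dhrs3 by day 4. In ΔK9.1 Crabp1 changed by -2.40, Crabp2 by 1.86 and Dhrs3 by 1.12, 3 called members beside 5.39% of all genes, and Cyp26a1 was at 1.24 (adjusted p = 0.173). Its ΔK9.1 libraries held 1.07 to 4.55 TPM on day 4, all above the 0.54 to 0.59 TPM of day 0, and with only these libraries in the fit it was called as well (adjusted p = 0.0228). Dhrs3 in ΔK9.1 missed the size limit without replicate 2 of day 4 (0.95). In ΔK9.2 Crabp1 changed by -1.98, Crabp2 by 2.83, Dhrs3 by 1.47 and Cyp26a1 by 2.32 (adjusted p = 0.0103), 4 called members beside 7.62%. Cyp26a1 in ΔK9.2 was not called without replicate 1 of day 4 (1.53, adjusted p = 0.0907). The change from day 0 to day 4 itself differed between the clones and E14Tg2a by -2.54 for Cyp26a1 (adjusted p = 0.314), with no called member beside 0.0184% of all genes and only Cyp26a1 at an unadjusted p under 0.05. These day 4 against day 0 comparisons in the clones, and the comparison of differences between days below, were added after the values had been seen.

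On day 6, with 2 libraries a line, no member was called beside 1.62% of all genes, and 2 were at an unadjusted p under 0.05: Crabp1 (-1.40, adjusted p = 0.0816 by limma) and Rarg (0.48, adjusted p = 0.159). Cyp26a1 read 92.6 and 13.6 TPM in ΔK9.1 and 78.7 and 81.6 TPM in ΔK9.2, all below the 116 and 148 TPM of E14Tg2a (-1.27, adjusted p = 0.389). Rara (14.3 to 19.4 TPM against 14.2 and 11.6 TPM) and Rarg (35.9 to 44.0 TPM against 32.0 and 23.9 TPM) were higher in each clone library than in both E14Tg2a libraries. Rarb (0.076 to 0.288 TPM against 0.421 and 0.426 TPM) was lower in each. The share of all genes that separate in this way on day 6 was not computed, so the separation is not read as a trait of the members. With 4 libraries against 2 the exact permutation test cannot go below p = 0.133. Crabp1 was at 56.0 TPM in ΔK9.1 replicate 2 and at 13.5 to 21.6 TPM in the other clone libraries, against 88.9 and 45.8 TPM. Without that ΔK9.1 library, Crabp1 and Aldh1a2 were called lower in the clones. ΔK9.1 replicate 3, with 3.07 TPM of Aldh1a2 and 13.6 TPM of Cyp26a1, was the lowest library of the day for both enzymes, and its summed extra-embryonic endoderm markers (27.2 TPM) were the lowest too. The 2 E14Tg2a libraries held endoderm sums of 224 and 431 TPM and the other clone libraries 58.1 to 87.2 TPM, and 3 of the 16 markers were called lower. The summed level of 12 mesoderm markers was likewise lowest in ΔK9.1 replicate 3, at 84.0 TPM. It was 429 to 557 TPM in the other clone libraries and 627 and 765 TPM in E14Tg2a, and 4 of these markers were called lower. The part of either marker set in these values was not tested.

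On day 8 Aldh1a2 was higher in the clones. It read 11.4, 11.2 and 9.26 TPM in ΔK9.1 and 9.07, 4.50 and 24.4 TPM in ΔK9.2, against 3.78, 2.12 and 4.96 TPM in E14Tg2a. Of the 6 clone libraries 5 lay above all E14Tg2a libraries, and each was above the E14Tg2a library of its number. The difference was 1.35 (SE 0.36, adjusted p = 0.00945), 1 called member of 9 beside 4.24% of all genes. It was not called without replicate 2 of E14Tg2a (1.09, adjusted p = 0.110) or with only the day 8 libraries in the fit (adjusted p = 0.0874). The exact permutation test gave p = 0.0476 (adjusted p = 0.343). In the single clones Aldh1a2 was called in ΔK9.1 (1.38, adjusted p = 0.0322), 1 member beside 3.10% of all genes, and in ΔK9.2 (1.33, adjusted p = 0.0288). The ΔK9.1 call was lost in 6 of 11 alternatives, among them those without any 1 of the 3 ΔK9.1 libraries (adjusted p 0.0607 to 0.0876) and without replicate 2 of E14Tg2a (1.12, adjusted p = 0.186). The ΔK9.2 call was lost in 5 of 11, as without replicate 3 of ΔK9.2 (0.74, adjusted p = 0.221), replicate 1 of ΔK9.2 (adjusted p = 0.0678) or replicate 2 of E14Tg2a (1.07, adjusted p = 0.180).

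Rarb was the other called member in ΔK9.2 on day 8 (-1.003, adjusted p = 0.0433), where 5.20% of all genes were called. Its 0.28, 1.57 and 4.26 TPM overlapped the 2.46 to 6.73 TPM of E14Tg2a, and the call was lost in 7 of 10 alternatives, as without replicate 1 of ΔK9.2 (-0.50, adjusted p = 0.371). Dhrs3 was at 1.53 to 5.89 TPM in the clones against 3.84 to 8.65 TPM, a difference of -0.74 that passed the adjusted p (0.0424) but not the size limit. All 6 clone libraries had less Dhrs3 than the E14Tg2a library of their number. Stra6 was at 0.83 to 1.77 TPM in the clones and 0.60 to 0.87 TPM in E14Tg2a (0.38, adjusted p = 0.401 by limma, exact permutation p = 0.0476, adjusted 0.343).

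Cyp26a1 read 112, 52.2 and 49.9 TPM in ΔK9.1 and 206, 99.0 and 95.8 TPM in ΔK9.2 on day 8, against 75.3, 16.2 and 38.7 TPM in E14Tg2a. Each clone library lay above the E14Tg2a library of its number, though the groups overlapped (1.30, adjusted p = 0.122). Blocking on replicate number, this difference was called (adjusted p = 0.0403), so 2 members rather than 1 were called on that day. In ΔK9.2 alone, where no library overlapped E14Tg2a, the difference was 1.75 (adjusted p = 0.0761, and 0.0202 with the block), which makes 3 called members with the block rather than 2. Without replicate 1 of E14Tg2a, Cyp26a1 (1.82, adjusted p = 0.0493) and Dhrs3 (-1.04, adjusted p = 0.00829) were called beside Aldh1a2 in the clones together. Without replicate 2 of E14Tg2a no member was called, and the differences were 0.74 for Cyp26a1 (adjusted p = 0.565) and -0.54 for Dhrs3 (adjusted p = 0.291). Set against day 4 the direction had turned: the difference on day 8 minus that on day 4 was 3.93 for Cyp26a1 (SE 0.83, adjusted p = 0.0155), 1 called member beside 1.31% of all genes. It was not called without replicate 2 of day 8 (3.37, adjusted p = 0.0932) or replicate 3 of day 4 (3.82, adjusted p = 0.0526) of E14Tg2a. The call was also lost with only the libraries of these days in the fit. By group mean, Cyp26a1 was highest on day 6 in E14Tg2a (132 ± 23.0 TPM, n = 2) and on day 8 in ΔK9.1 (71.5 ± 35.3 TPM, n = 3) and ΔK9.2 (134 ± 63.0 TPM, n = 3). In ΔK9.1 days 6 and 8 overlapped: day 6 read 92.6 and 13.6 TPM (53.1 ± 55.9 TPM, n = 2), and replicate 2 was lower on day 8. In ΔK9.2 the day 6 libraries (78.7 and 81.6 TPM) lay below all day 8 libraries.

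**Figure D3:**
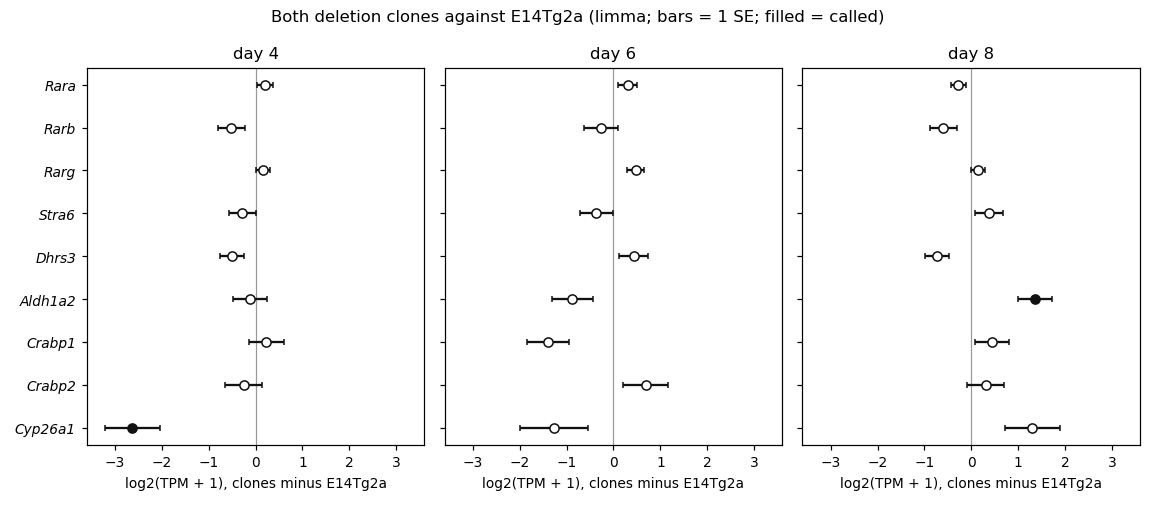
Difference of both clones from E14Tg2a in log2(TPM + 1) for the 9 genes on days 4, 6 and 8, with 1 SE from limma as bars. Filled points are called, which are Cyp26a1 on day 4 (-2.63) and Aldh1a2 on day 8 (1.35).

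Marker lists of other cell types also differed between the lines, and not on the same days. On day 4 the extra-embryonic endoderm markers were the list that differed, with 12 of 16 called lower in the clones. The other lists had no called gene on that day, and their sums overlapped: 4130.3 to 5743 TPM in E14Tg2a and 4044 to 7242 TPM in the clones for 8 pluripotency markers, 15.0 to 24.1 and 14.5 to 23.1 TPM for the mesoderm markers, and 28.4 to 48.4 and 26.1 to 48.7 TPM for the 5 listed of 8 neural markers. On day 6, beside the endoderm and mesoderm sums above, pluripotency markers summed to 1889 and 1994 TPM in E14Tg2a and to 2337 to 3210 TPM in the clones, and neural markers to 48.6 and 56.4 TPM and to 60.0 to 77.3 TPM. For both lists the lines did not overlap, and no gene was called.

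On day 8 the extra-embryonic endoderm markers summed to 637 to 847 TPM in E14Tg2a and to 77.7 to 305 TPM in the clones, 10 of 16 were called lower, and Cubn, Amn and Apob were under 1 TPM in every clone library. The pluripotency markers summed to 390 to 492 TPM in E14Tg2a and to 719 to 1627 TPM in the clones, with 5 called higher. The mesoderm markers summed to 837 to 853 TPM and to 190 to 799 TPM, with 3 called higher and 2 lower. No neural marker was called, with sums of 25.0 to 53.3 TPM and 31.5 to 53.4 TPM. The part of these cell types in the differences of Cyp26a1 and Aldh1a2 was not tested.

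The wider pathway was read from 5 lists of 53 genes, 42 of them listed in the table. Between day 0 and day 8 in E14Tg2a 20 were called higher and 4 lower, 57.1% beside 26.9% of all genes, with a median difference of 0.89 beside 0.05 over all genes. Of the 18 genes known to be induced by retinoic acid 11 rose and 2 fell. Hoxb2, a hindbrain patterning gene, was listed at 0 in each day 0 library and rose to 20.1 ± 3.37 TPM (n = 3), and the transcription regulator gene Zfp703 rose from 0.23 to 20.2 ± 5.04 TPM (4.08). Gbx2, a homeobox gene of the midbrain-hindbrain boundary that is also active in embryonic stem cells, fell from 41.0 to 1.07 ± 0.50 TPM (-4.37). Of 9 genes for retinol uptake, transport and storage 5 are listed, and 3 rose and 1 fell. Ttr (6.29) and Rbp4 (4.97), which carry retinol in blood, were among those that rose. Among 7 listed genes that oxidise retinol or retinal, Rdh10 (1.48), the main embryonic retinol dehydrogenase, Rdh11 (1.36) and Rdh14 (1.004) rose. Cyp26b1 (1.07) and the fatty acid binding protein gene Fabp5 (1.46) rose, and Cyp26c1 was not called. Of the 9 receptor partners and coregulators 1 rose (the corepressor gene Nrip1, 1.15), 1 fell (the coactivator gene Ncoa3, -1.06) and 7 were not called, the RXR genes among them.

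**Figure D4:**
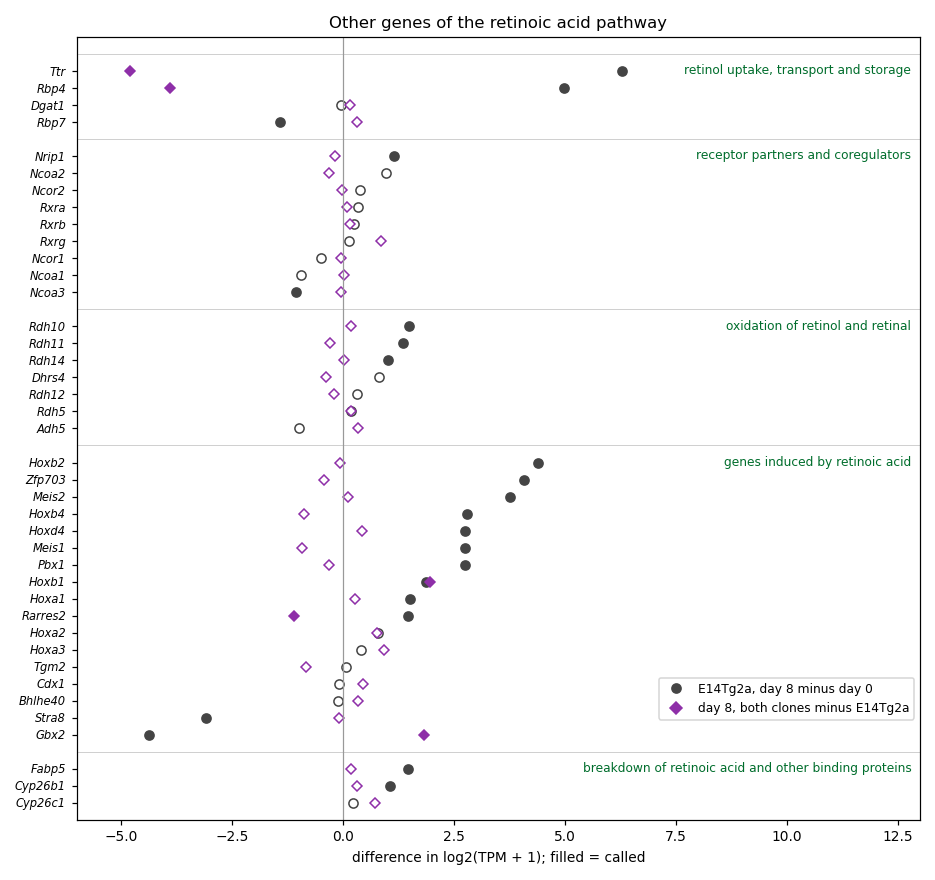
Difference in log2(TPM + 1) for 40 of the 42 listed genes of the pathway lists, between day 8 and day 0 in E14Tg2a (circles) and between both clones and E14Tg2a on day 8 (diamonds). Filled symbols are called. Ttr and Rbp4 are far to the right for the first comparison (6.29 and 4.97) and far to the left for the second (-4.81 and -3.90).

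Between the clones and E14Tg2a 6 of the 42 genes were called on day 8 (14.3% beside 4.24% of all genes), 2 higher and 4 lower. The carrier genes Ttr (0.40 to 20.9 TPM in the clones against 64.5 TPM or more in E14Tg2a, -4.81, adjusted p = 8.43e-05) and Rbp4 (5.43 to 16.7 TPM against 123 TPM or more, -3.90, adjusted p = 1.36e-05) were lower in every clone library. Ttr is itself among the 16 extra-embryonic endoderm markers. Of the genes induced by retinoic acid, Hoxb1 was higher (7.65 to 22.4 TPM against 2.73 ± 0.78 TPM, 1.95, adjusted p = 0.000345), as was Gbx2 (3.22 to 11.3 TPM against 1.07 ± 0.50 TPM, 1.82, adjusted p = 0.00124). Of this list 14 of 18 genes were not called, with a median difference of 0.03 beside 0.00 over all genes. No receptor partner, retinol-oxidising gene or breakdown gene was called on day 8, though 1 gene of each passed the adjusted p and missed the size limit. These were the receptor partner Rxrg (1.47 to 4.46 TPM in the clones against 0.22 to 0.99 TPM, 0.87, adjusted p = 0.00846), Adh5 (0.34, adjusted p = 0.00239) and Cyp26c1 (0.73, adjusted p = 0.0152), named after their values were seen. On day 6 only Ttr was called (2.38% of the 42 genes beside 1.62% of all genes), and the change from day 0 to day 8 differed for 5 of the 42 genes (11.9% beside 3.05%), 3 higher and 2 lower in the clones.

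With the 12 groups of line and day ordered by mean, the libraries of neighbouring groups overlapped in all 11 pairs for Rara and Stra6, in 10 of 11 for Rarg, Dhrs3, Crabp1 and Cyp26a1, and in 9 of 11 for Rarb, Aldh1a2 and Crabp2. Over all genes the median was 10 of 11, and 91.9% of them had 9 or more. For Aldh1a2 the breaks lay below E14Tg2a of day 6 and below E14Tg2a of day 8. Among the members, the group means that moved most alike were those of Crabp2 with Cyp26a1 (Pearson r = 0.88 over 12 group means of log2(TPM + 1)) and with Dhrs3 (0.86), and the most opposed were those of Cyp26a1 and Rara (-0.90). These groups share lines and days, so the values are descriptions.

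The genes most like each member were sought among 6436 genes with a group mean of 5 TPM or more and a range of at least 1. Aldh1a2 was most like Hoxaas3 (r = 0.98), an RNA gene of the HoxA cluster, and Hoxb1 (0.97), and Hoxb1 was also first over the 33 libraries (0.94). Rarb was nearest to Vamp5 (0.98) and Rhobtb1 (0.98), Crabp1 to Siah2 (0.98) and Tln2 (0.97). Crabp2 was nearest to Clip3 (0.99) and Patj (0.98), and Cyp26a1 moved much like Slc25a10 (0.98). Rara was nearest to Prx (0.98) and Arid5b (0.98), Dhrs3 to Cmtm8 (0.96) and Cgnl1 (0.94). The values were lower for Rarg (Lrch4 and Inpp5k, both 0.90) and Stra6 (Cxcl10 0.82, Rgs16 0.81). Over the 33 libraries only Vamp5, Siah2 and Hoxb1 of these genes ranked first for their member.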

How the data were processed

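RNA was sequenced by the study from stranded poly-A libraries of E14Tg2a, ΔK9.1 and ΔK9.2 cells. Per the methods and labels, the authors used STAR for alignment to mm10 and RSEM for quantification (versions and annotation not given in the sources used here), and deposited 1 table of TPM per gene and library. Its remaining columns, deposited by the authors, hold DESeq log2 fold changes and adjusted p-values, which were not used. TPM are relative, so a few abundant genes can shift all others. Values were taken as log2(TPM + 1), a pseudocount of 1, and tested with limma 3.58.1 (R 4.3.3, trend) over all 16336 genes and 33 libraries. The 9 day 0 libraries were fitted alone, over 14504 genes with a group mean of at least 1 TPM. p-values were adjusted by Benjamini-Hochberg. Single genes were also given an exact two-sided permutation test, which took no account of replicate number or clone. Scripts were tested on simulated data.

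Groups came from the labels. The members and gene lists were chosen with earlier results of these data known. All 9 members are named, and of each pathway list at most the 3 called genes with the largest differences on day 8, in E14Tg2a against day 0 and between the clones and E14Tg2a, and for each member the 2 genes most like it. Genes named for a DR5 beside the members were chosen after their values were seen. The study describes the lines as cultured in parallel, so same-numbered libraries were taken as pairs for the block. Their deviations from the group means correlated with a median of 0.23 over 33 pairs (31 above 0.1, lowest -0.02), against -0.13 over 60 pairs of different number. No library was identical to another of its group. The study states that RNA came from 3 independent assays, and the labels do not say which library belongs to which, so p-values measure the spread between these libraries. The settings also tried were a minimum of 5 TPM, a pseudocount of 0.1, median ratio rescaling, the replicate block, only the groups compared in the fit, and leaving out each library. A few genes that these rules name are not reported here.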

Additional observations from a re-analysis of the deposited data

Results flagged for a closer look

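Cyp26a1 was singled out because its difference between the clones and E14Tg2a was not the same on 2 days. It was -2.63 on day 4 and 1.30 on day 8 on the log2(TPM + 1) scale, and the test of the change between these days gave 3.93 (SE 0.83, adjusted p = 0.0155 by limma). This call was lost in 3 of 23 alternatives, and the day 8 difference was itself not called (adjusted p = 0.122 by limma). All 6 clone libraries were below the E14Tg2a library of the same number on day 4 and all 6 above it on day 8. Each E14Tg2a library serves in 2 of these pairs, and the share of all genes with such agreement was not computed. All 6 pairs also went lower for Rarb, Stra6 and Dhrs3 on day 4. On day 8 they went lower for Rara and Dhrs3 and higher for Aldh1a2. The comparison of these days was added after the values had been seen, and the summed extra-embryonic endoderm markers of each clone library were below those of the E14Tg2a library of its number on both days. On day 4 the groups overlapped, since ΔK9.2 replicate 1 (369 TPM) lay above E14Tg2a replicate 2 (173 TPM).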

How the results depend on the processing

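Over all 9 genes no called difference reversed under any alternative run: of 471 recomputed differences of named members 430 stayed past their threshold and 41 kept their direction but no longer passed, mostly in fits without 1 library. Most of the 471 were differences between days. Between the clones and E14Tg2a calls were lost more often: Cyp26a1 on day 4 in 3 of 14 alternatives and Aldh1a2 on day 8 in 2 of 14. In single clones on day 8 Aldh1a2 lost its call in 6 of 11 (ΔK9.1) and 5 of 11 (ΔK9.2), and Rarb in 7 of 10 (ΔK9.2). The Cyp26a1 call for day 8 minus day 4 was lost in 3 of 23. The replicate block moved the number of members called in E14Tg2a on day 8 against day 6 from 3 to 5, on day 6 against day 4 from 2 to 3, between the clones and E14Tg2a on day 8 from 1 to 2 and in ΔK9.2 on that day from 2 to 3, and it ended no call. With only the groups compared in the fit no member was called between the clones and E14Tg2a on day 4 (0, 22 genes in all beside 130) or day 8 (0, 334 beside 693), in ΔK9.1 (0, 45 beside 506) or ΔK9.2 (0, 345 beside 849) on day 8, or for day 8 minus day 4 (0, 3 beside 214). That fit has fewer libraries. It also called 140 genes beside 265 on day 6, 269 beside 499 for the change to day 8, and 1 beside 0 between the clones. With only the groups compared Cyp26a1 was called in ΔK9.1 on day 4 against day 0 (4 members beside 3). A pseudocount of 0.1 gave 0 members for ΔK9.1 on day 8 and 0 for ΔK9.2 against E14Tg2a. Against day 0 it added Rarb on day 4 (1.92, adjusted p = 0.0333 by limma) and Dhrs3 on day 6 (1.51, adjusted p = 0.00912) in E14Tg2a and Stra6 on day 8 (1.72, adjusted p = 0.0365) in ΔK9.1. It raised the genes called to 2000 from 1265 (E14Tg2a day 4), 1503 from 880 (ΔK9.1 day 4), 1968 from 1245 (ΔK9.2 day 4), 142 from 67, 196 from 130 and 1155 from 693 (clones against E14Tg2a on days 0, 4 and 8), and 1 from 0 between the clones. In ΔK9.2 on day 8 a minimum of 5 TPM left 1 member and median ratio rescaling 1. For the change to day 4 in the clones against that in E14Tg2a, 3 genes were called, 12 with the block and 1 with either a pseudocount of 0.1 or a minimum of 5 TPM. Leaving out each library in turn gave, for E14Tg2a, 4 to 4 members on day 4, 3 to 5 on day 6 and 4 to 5 on day 8 against day 0, 2 to 3 on day 6 against day 4 and 1 to 4 on day 8 against day 6. It gave 5 to 6 (ΔK9.1) and 4 to 7 (ΔK9.2) on day 8 against day 0, 2 to 3 and 3 to 4 on day 4 against day 0, and for the clones against E14Tg2a 0 to 0, 0 to 1, 0 to 2 and 0 to 3 on days 0, 4, 6 and 8. On day 8 it gave 0 to 1 in ΔK9.1, 0 to 4 in ΔK9.2 and 0 to 0 between the clones, and for the differences of changes 0 to 1 (day 8), 0 to 0 (day 4) and 0 to 2 (day 8 minus day 4). The number of all genes called also moved, from 67 to between 30 and 156 on day 0 (without replicates 3 and 1 of E14Tg2a), from 130 to between 38 and 181 on day 4 (without replicates 3 and 2 of E14Tg2a), from 265 to between 58 and 531 on day 6 (without replicate 2 of E14Tg2a and of ΔK9.1), and from 693 to between 372 and 953 on day 8 (without replicates 2 and 1 of E14Tg2a) for the clones against E14Tg2a. It was 233 to 812 in ΔK9.1 and 450 to 1131 in ΔK9.2 on day 8, 168 to 749 for the change to day 8 and 41 to 512 for day 8 minus day 4, each lowest without replicate 2 of E14Tg2a on day 8. It was 0 to 81 between the clones, 1 to 42 for the change to day 4, and 872 to 1647 for E14Tg2a on day 6 against day 4. Where this left a day 6 group with 1 library, that library was assumed to vary like the other groups. TPM keep no depth, which limits what can be said of Rarb, Stra6 and other genes near 1 TPM.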
